A study of Mus musculus with 13 samples.

Results

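The genes described here encode precursors of peptides that hypothalamic neurons release: Hcrt, Pmch, Oxt, Avp, Trh, Gnrh1, Ghrh, Agrp, Cartpt and Gal. They were chosen by name, as every probe set annotated to one of these 10 symbols. Of the 10 genes, 8 had a named probe set, with 1 probe set each (8 in all), among 18194 named genes on the array. Gnrh1 and Agrp were not analysed here because no probe set of the annotation used carried their symbols. Each array held RNA of the whole brain of 1 mouse embryo, taken at embryonic day 18.5. There were 6 wild-type embryos and 7 embryos labelled as knock-outs of Meg3, a maternally expressed non-coding RNA, from 5 litters. Litters 219, 238, 250 and 262 held both genotypes and litter 148 held knock-out 1 alone. The sources used here do not give the part of Meg3 deleted, the parent that passed on the allele, the strain or the sex of the embryos.

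Each of these peptides is cut from a larger secretory precursor and stored in dense-core granules. Oxytocin and vasopressin (Oxt, Avp) are made by magnocellular neurons of the supraoptic and paraventricular nuclei and released from the posterior pituitary. Orexin and melanin-concentrating hormone (Hcrt, Pmch) come from separate neurons of the lateral hypothalamus that regulate waking, sleep and feeding, while thyrotropin-releasing hormone and growth hormone-releasing hormone (Trh, Ghrh) act on the anterior pituitary. CART and galanin (Cartpt, Gal) are also made outside the hypothalamus, so that a whole-brain signal of them need not come from it. For the other genes too, whole-brain RNA does not show which region the signal came from.

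The start regions of these genes are shown because the 8 measured genes are read together as one group, and Oxt and Avp are direct neighbours. In the RefSeq table of GRCm38.p6 they lie on chromosome 2 with 3565 bases and 0 annotated genes between them, and are read from opposite strands. Each line below gives 60 bases from RefSeq (build GRCm38.p6), 5′ to 3′ on the strand of the gene, that end just before an annotated start. For Oxt, Cartpt and Ghrh this start lies inside the annotated span of the gene, not at its 5′ end. Capitals mark the letters TATAA or ATAAA, which may overlap, as in a TATA box.
Oxt (chr2:130576109-130576168, plus strand): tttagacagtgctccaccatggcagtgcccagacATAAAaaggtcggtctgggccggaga
Avp (chr2:130582589-130582648, minus strand): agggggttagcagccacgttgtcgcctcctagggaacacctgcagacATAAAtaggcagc
Hcrt (chr11:100762932-100762991, minus strand): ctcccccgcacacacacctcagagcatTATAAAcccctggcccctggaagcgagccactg
Pmch (chr10:88091012-88091071, plus strand): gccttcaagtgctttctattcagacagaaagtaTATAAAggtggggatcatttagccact
Trh (chr6:92244651-92244710, minus strand): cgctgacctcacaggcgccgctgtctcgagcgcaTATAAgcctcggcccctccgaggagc
Ghrh (chr2:157337427-157337486, minus strand): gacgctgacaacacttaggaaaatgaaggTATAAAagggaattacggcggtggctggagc
Cartpt (chr13:99900684-99900743, minus strand): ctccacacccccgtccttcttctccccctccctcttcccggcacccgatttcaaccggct
Gal (chr19:3414545-3414604, minus strand): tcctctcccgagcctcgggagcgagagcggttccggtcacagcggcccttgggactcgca
Either motif stood in 6 of the 9 member windows, against 9.97% of 32851 windows of all genes, and 6.81% of all windows held one on the opposite strand. The window not shown belongs to another annotated start of Ghrh, upstream of the start shown and listed before it. That window held neither motif, and neither did those of Cartpt and Gal. Both Oxt and Avp held ATAAA, whose first base lay 26 bases before the start used here in Oxt and 13 in Avp. The motifs and the window were chosen after the values and sequences were seen, and a match is only a description of these letters.

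Wild-type 1, wild-type 2 and knock-out 1 stood apart from the other arrays. Their median correlation with the other arrays, over 12920 genes tested, was 0.942, 0.956 and 0.960, against 0.971 to 0.982 in the other 10. The 3' to 5' signal ratio of the Actb control, which rises as RNA is shortened, was 2.92 in wild-type 2 and 1.81 in knock-out 1, and at most 1.495 in the others. Meg3 itself checked the labels, with signals of 3109 to 6251 in wild-type and 264 to 589 in knock-out brains. Of the marker lists, 8 of 8 neuron genes, 3 of 3 of the telencephalon, 4 of 4 of the thalamus and 17 of 25 hypothalamic transcription factors lay above the filter on weak signals. Of 9 pituitary genes 2 did (Pomc and Lhb), and Gh, Prl, Cga, Tshb and Fshb lay below it, with group means of 2.28 to 50.1. Choroid plexus genes, of which 7 of 8 lay above the filter, had 1 higher and 6 lower mean log2 values in knock-out brains at a median difference of -0.51, with 0 passing the test. Their summed signal was 23077 to 38774 in wild-type and 9079 to 32022 in knock-out brains, and their part in the differences given here was not tested. The lowest sum, 9079, was that of knock-out 4, and the next lowest was 18899 in knock-out 7. Knock-out 4 also had the highest summed signal of the thalamus genes, 10542, followed by 7677 in knock-out 3. The median signal of the arrays ran from 82.9 to 111 in wild-type and from 96.6 to 124 in knock-out brains.

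Which of the peptide genes were expressed at this age was read against that filter and against genes of other organs. The filter, the 40th percentile of the mean log2 values of all probe sets, corresponds to a signal of 56.9. The 41 probe sets of 29 genes of other organs, such as testis, pancreas, gut, kidney, liver and lung, had mean signals of 0.724 to 82.7 with a median of 18.7. Of these probe sets 2 exceeded the filter, and both had higher mean log2 values in knock-out brains (differences of 0.065 and 0.65, 0 called). The summed signal of the 29 genes was 574 to 899 in wild-type and 714 to 1054 in knock-out brains. Its part in the differences of the peptide genes was not tested. Oxt, Avp, Hcrt, Pmch, Cartpt and Gal each lay above the filter in 13 of 13 embryos, and 0 of the 41 comparison probe sets had a higher mean. Trh was above it in 9 of 13 embryos, with 1 comparison probe set higher, and Ghrh in 6 of 13, with 2 higher. Probes bind with different strength, so that this comparison with other probe sets is a rough guide to detection only, and the levels of the peptide genes are not ranked against each other. In whole-brain RNA, fewer cells of a type and less RNA per cell cannot be told apart.

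**Figure D1:**
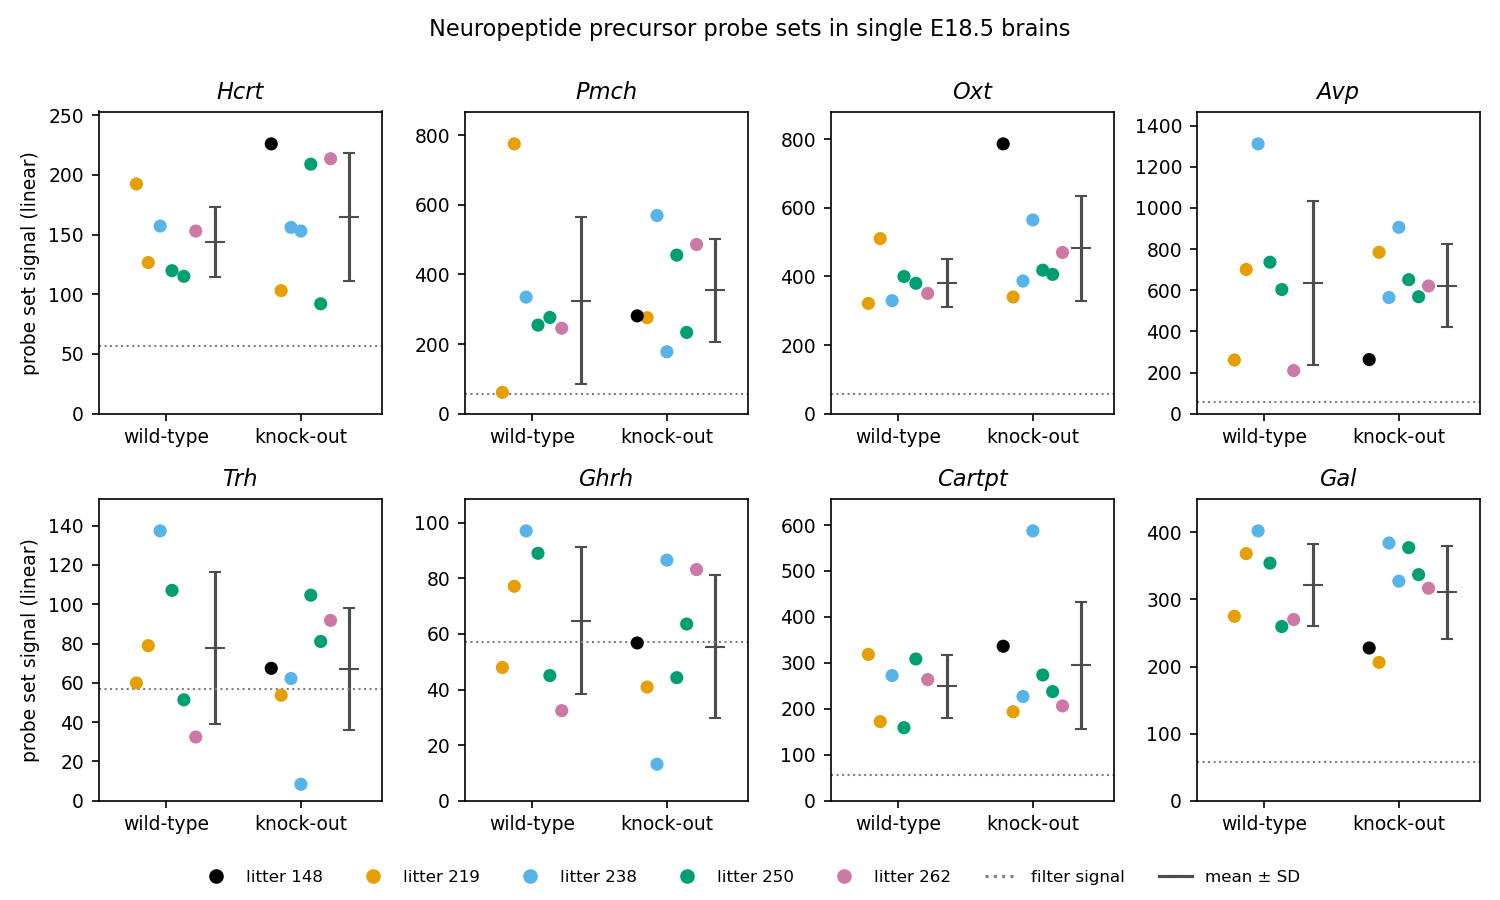
Signal of the 8 measured genes in each embryo, on a linear axis from 0, with points coloured by litter, the group mean ± SD beside them and the filter signal of 56.9 as a dotted line. In all 8 panels the knock-out and wild-type points overlap, and Trh and Ghrh lie around the filter.

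Oxt (probe set 1420556_at), the oxytocin precursor, had similar signals in most embryos. In wild-type brains it measured 321, 510, 329, 400, 380 and 350.5 (replicates 1 to 6), and in knock-out brains 786, 340.1, 387, 565, 418, 406 and 469.8 (replicates 1 to 7). The highest value of each genotype came from the array with the highest Actb ratio of that genotype, wild-type 2 and knock-out 1, and the groups overlapped. The means were 382 ± 69.6 (SD, n = 6) in wild-type and 482 ± 152 (SD, n = 7) in knock-out brains, a difference of 0.29 ± 0.17 SE on the log2(signal + 16) scale (95% interval -0.08 to 0.66, limma adjusted p = 1.00, exact permutation p = 0.145). Within litters 219, 238, 250 and 262 the difference was -0.24, 0.49, 0.08 and 0.41. It was 0.41 ± 0.15 SE with the Actb ratio as a covariate and 0.25 ± 0.12 SE without those 2 arrays (limma adjusted p = 0.999 and 0.965). Without knock-out 1 alone it was 0.17 and with litter as a block 0.16 (adjusted p = 0.999 and 1.00), and the part of RNA quality in it was not tested further.

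Avp (1450794_at), the vasopressin precursor, varied far more. Wild-type signals were 261, 701, 1312, 736, 603 and 209, and knock-out signals 263, 785, 565, 906, 651, 568.4 and 621. Wild-type 1, wild-type 6 and knock-out 1 were low and wild-type 3 was high, so that the lowest and highest values of the series both came from wild-type brains. The means were nearly equal, 637 ± 399 (SD, n = 6) and 623 ± 201 (SD, n = 7), with a log2 difference of 0.14 ± 0.37 SE (95% interval -0.65 to 0.93, limma adjusted p = 1.00). Littermates differed both ways, by 0.85, -0.86, -0.13 and 1.499 in litters 219, 238, 250 and 262.

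Oxt and Avp showed no correlation between embryos that passed the test. Pearson's r over 13 arrays was -0.13 (permutation p = 0.685) and Spearman's rho 0.088 (permutation p = 0.780), adjusted p = 0.833 and 0.862 over 21 pairs of genes. Knock-out 1, with the highest Oxt and the third lowest Avp signal, decided the sign. Without it r was 0.32, and it was 0.21 without knock-out 1 and knock-out 4, the arrays farthest from the median of Oxt. It was 0.27 within wild-type and -0.64 within knock-out arrays.

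Pmch (1429361_at), the precursor of melanin-concentrating hormone, had the widest range among the genes well above the filter. Its signal was 61.2, 775, 335, 254, 276 and 245 in wild-type and 281, 275, 569, 178, 455, 233 and 486 in knock-out brains. The lowest and the highest value, 12.7-fold apart, came from wild-type 1 and wild-type 2, which are littermates of litter 219. The means were 324 ± 239 (SD, n = 6) in wild-type and 354 ± 148 (SD, n = 7) in knock-out brains, with a log2 difference of 0.32 ± 0.41 SE (95% interval -0.55 to 1.19, limma adjusted p = 1.00). Without wild-type 1 the difference was -0.047, and without the 2 arrays of highest Actb ratio it was 0.66 (adjusted p = 1.00 and 0.965).

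Hcrt (1420471_at), the orexin precursor, stayed within a 2.46-fold range. It measured 192, 127, 157, 120, 115 and 153 in wild-type and 226, 103, 156, 153, 209, 92.0 and 213 in knock-out brains. Both the lowest and the highest value were of knock-out brains. The means were 144 ± 29.4 (SD, n = 6) and 165 ± 53.8 (SD, n = 7), and the log2 difference was 0.13 ± 0.20 SE (95% interval -0.28 to 0.55, limma adjusted p = 1.00). With 1 array left out it ran from 0.053 (without knock-out 1) to 0.25 (without knock-out 6), and it was 0.027 with litter as a block. Hcrt and Pmch, whose neurons lie side by side, had r = -0.011 over 13 arrays (permutation p = 0.973, adjusted p = 0.973) and Spearman's rho 0.30 (permutation p = 0.315, adjusted p = 0.688). Leaving out wild-type 1 gave r = 0.27, leaving out the 2 arrays farthest from the median of Hcrt gave -0.072, and r was -0.68 within wild-type and 0.46 within knock-out arrays.

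Trh and Ghrh, precursors of releasing hormones that act on the anterior pituitary, had signals around the filter. Trh (1418756_at) measured 59.9, 78.9, 137, 107, 51.3 and 32.4 in wild-type and 67.4, 53.7, 62.2, 8.34, 105, 81.1 and 91.8 in knock-out brains. Knock-out 4 was low, far below its 2 littermates of litter 238, which had 137 and 62.2. The log2 difference was -0.21 ± 0.34 SE (95% interval -0.93 to 0.51, limma adjusted p = 1.00), and it was 0.062 without knock-out 4 (adjusted p = 0.999). Ghrh (1419634_a_at) fell below the filter and was tested only among all probe sets, where its log2 difference was -0.21 ± 0.29 SE (95% interval -0.82 to 0.41, limma adjusted p = 1.00). Its signals were 32.4 to 97.1 with a median of 62.5 in wild-type and 13.1 to 86.6 with a median of 56.8 in knock-out brains. The low array there was knock-out 3, not knock-out 4, and the log2 difference was -0.0082 without knock-out 3 and -0.34 without wild-type 6 (limma adjusted p = 1.00 for both).

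Cartpt (1422825_at), the CART precursor, was highest in knock-out 4. Signals were 318, 172, 272, 159, 308 and 264 in wild-type and 336, 193, 227, 587, 274, 237 and 206 in knock-out brains. Apart from knock-out 4, which stood at 587, and knock-out 1 at 336, each knock-out value lay within the wild-type range. The means were 249 ± 68.0 (SD, n = 6) and 294 ± 138 (SD, n = 7), with a log2 difference of 0.18 ± 0.24 SE (95% interval -0.32 to 0.68, limma adjusted p = 1.00), of 0.0037 without knock-out 4 and of 0.042 with litter as a block.

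Gal (1460668_at), the galanin precursor, was the steadiest of the 8 genes relative to its mean, with a coefficient of variation of 19.9% over all embryos. It measured 275, 368, 402, 354, 260 and 270 in wild-type and 228, 206, 384, 327, 377, 337 and 317 in knock-out brains. The groups overlapped over most of their range, and the lowest values were those of knock-out 2 and knock-out 1. The means were 322 ± 60.7 (SD, n = 6) and 311 ± 69.1 (SD, n = 7), with a log2 difference of -0.06 ± 0.16 SE (95% interval -0.40 to 0.28, limma adjusted p = 1.00).

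**Figure D2:**
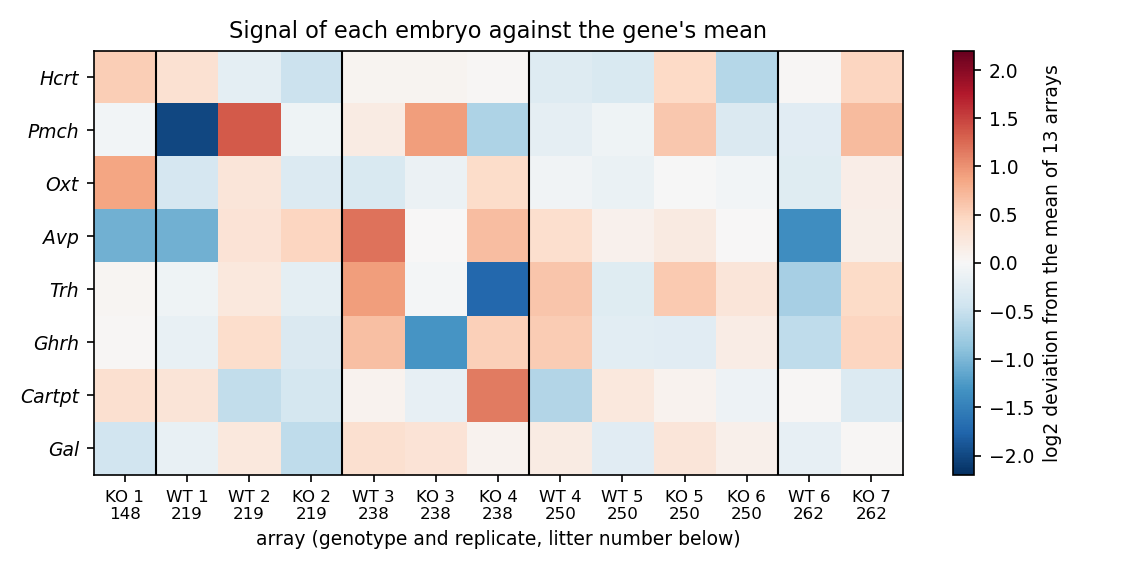
Log2(signal + 16) of each gene in each embryo as the deviation from its mean over 13 arrays, with columns grouped by litter (number below) and WT and KO for wild-type and knock-out. Single dark cells stand out, such as Pmch in wild-type 1 and 2, Trh and Cartpt in knock-out 4 and Avp in wild-type 6, and no litter or genotype forms a block of 1 colour.

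By genotype, 0 of 7 tested peptide genes passed the threshold of 0.05 on the limma adjusted p, against 0.0232% of all 12920 genes (3 called, all lower in knock-out and with Meg3 among them). The groups overlapped in 8 of 8 peptide genes, and 0.0774% of all genes had groups that did not. Without adjustment, 0 of the 7 had a limma p under 0.05 in the fit on genotype alone, and 1.97% of all genes did. Unadjusted p of the alternative genotype fits are not given here. The smallest unadjusted p was that of Oxt, 0.115. The mean log2 value was higher in knock-out brains in 5 genes and lower in 2 (Trh and Gal), and the median log2 difference was 0.14 beside 0.04 over all genes. With each array centred on its median, which moved all genes to -0.15, the split was 2 higher and 5 lower at a median of -0.059. Leaving out wild-type 1 gave 3 higher and 4 lower, with a median of -0.047 beside 0.026 over all genes, and with litter as a block the median was 0.042 beside 0.041. The intervals leave room for real differences. On the fold scale of log2(signal + 16) the upper bound was 1.22-fold for Gal, 1.58-fold for Oxt, 1.90-fold for Avp and 2.28-fold for Pmch, and the lower bound was 0.758-fold, 0.947-fold, 0.637-fold and 0.684-fold.

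**Figure D3:**
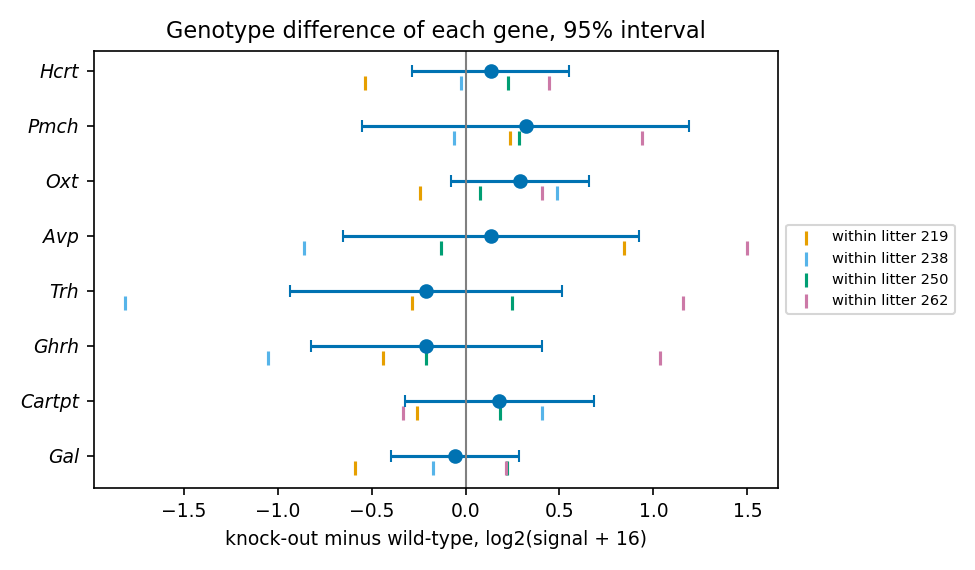
Knock-out minus wild-type difference of each gene in log2(signal + 16), as the fitted value (dot) with its 95% interval (bar) from limma, and the same difference within each litter that held both genotypes (ticks). All 8 intervals cross 0, and the litter values of Avp run from -0.86 to 1.499.

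Signals of embryos of 1 genotype differed widely in Pmch, Avp and Trh. Each embryo had 1 array, so that variation between embryos and variation between arrays cannot be told apart. Wild-type 1 and wild-type 2, the arrays of lowest and highest Pmch signal, were the least alike of all pairs of arrays (r = 0.894). The within-genotype SD on the log2 scale was 0.85 for Pmch, 0.77 for Avp and 0.70 for Trh, against a median of 0.27 over all genes. Set among the 1000 genes of nearest mean signal, the SD of Pmch exceeded that of 99.4%, of Avp 99.2% and of Trh 95.2% of them. Cartpt (SD 0.47) exceeded 86.9%, Hcrt (0.38) 71.0%, Oxt (0.33) 67.2% and Gal (0.30) 54.2%. The SD of Oxt was 0.20 without the 2 arrays of highest Actb ratio, which took its rank to 32.6%. Leaving out wild-type 1 as well took the SD of Pmch to 0.52 and its rank to 95.9%, while Avp stood at 0.69 and 99.9%. The rank of Trh was 77.9% without knock-out 4, and that of Cartpt 64.2%. These ranks are descriptions with no test.

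**Figure D4:**
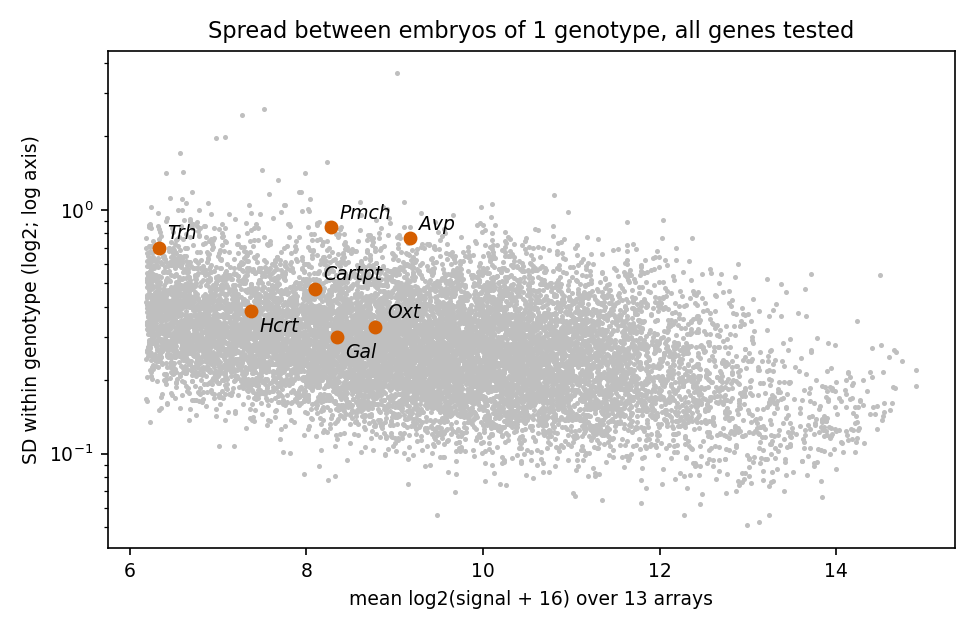
SD between embryos of 1 genotype (log axis) against mean log2(signal + 16) for the 12920 genes tested (grey), with the 7 peptide genes above the filter in orange. Pmch and Avp lie at the upper edge of the cloud at their signal, and Gal and Oxt in its middle.

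The peptide genes were also compared between litters. In limma's F test of litter beside genotype, 0 of the 7 passed an adjusted p of 0.05, against 0.0387% of all genes (5 called). Without adjustment, 14.9% of all genes had an F test p under 0.05, and the smallest of the 7 peptide genes was 0.109 for Avp. The smallest adjusted p were 0.430 for Avp and 0.460 for Oxt, and that of Pmch was 0.991. For Avp the litter means ran from 263 in litter 148 (1 embryo) and 415 in litter 262 (n = 2) to 927 in litter 238 (n = 3), where single embryos spanned 565 to 1312. For Oxt litter 148 stood at 786 and the other litters between 391 and 427.

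Among the 21 pairs of the 7 genes above the filter, 0 were correlated over the 13 embryos at an adjusted p of 0.05 by Pearson's r, with 1 at an unadjusted p under 0.05. That pair was Trh and Cartpt, with r = -0.67 (permutation p = 0.0197, adjusted p = 0.414) and Spearman's rho -0.41 (permutation p = 0.171, adjusted p = 0.607). It rested on knock-out 4, which had the lowest Trh and the highest Cartpt signal, and r was -0.25 without it. That array also had the lowest choroid plexus and the highest thalamus sum, whose part in the correlation was not tested. Without wild-type 3 and knock-out 4, the arrays farthest from the median of Trh, r was -0.40 (permutation p = 0.221). The pair with the highest r was Avp and Gal, at 0.50 (permutation p = 0.0813, adjusted p = 0.552; Spearman's rho 0.35, permutation p = 0.247, adjusted p = 0.688). By Spearman's rho 1 pair had an unadjusted p under 0.05 and 0 an adjusted one. That was Trh and Gal, with rho 0.62 (permutation p = 0.0286, adjusted p = 0.601) and r = 0.37 (permutation p = 0.215, adjusted p = 0.552), and r was 0.60 without the 2 farthest arrays (permutation p = 0.0512). Over all pairs r was positive in 12 and negative in 9.

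The genes whose pattern over the 13 embryos was most like each peptide gene were named by Pearson's r among all genes tested. This is a description with no p, since the 2 genes of a pair share each embryo and array. Each partner is also among the highest of 12920 values of r over 13 arrays, and such a choice alone can give a high r. Oxt was followed by Anks1b, a postsynaptic scaffold protein (r = 0.90), Kap (0.90) and Sugp2 (0.90). Anks1b had its highest signals, 2297, 1923 and 1912, in knock-out 1, knock-out 4 and wild-type 2, the arrays in which Oxt was highest as well. Knock-out 1 and wild-type 2 are the arrays of highest Actb ratio, and without both of them r was 0.84 for Anks1b, 0.82 for Kap and 0.70 for Sugp2. Pmch was followed by Serpinb6b (0.93), Rars2, a mitochondrial arginyl-tRNA synthetase (0.91), and Zfp54 (0.91), which fell to 0.88, 0.80 and 0.79 without wild-type 1. Cartpt was followed by Hs3st3b1, a heparan sulfate sulfotransferase (0.90), and by Acta1 and Myl4, an actin and a myosin light chain of striated muscle (0.89 and 0.88), which had 0.80, 0.78 and 0.80 without knock-out 4. In knock-out 4, Acta1 stood at 571 and Myl4 at 140.0, the highest of the 13 arrays, beside the highest Cartpt signal, and their part in it was not tested.

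The remaining genes had looser partners in some cases. Gal was followed by Prox1os (0.87), the dynorphin precursor Pdyn (0.83) and Zcchc12 (0.81). Avp was followed by Ms4a6c (0.90), Scrn1 (0.83) and Anxa3 (0.82). Hcrt was followed by 1700008O03Rik (0.81), Slitrk1 (0.77) and the Notch modifier Lfng (0.76). With 1 array left out, the lowest r was 0.71 to 0.80 for the partners of Gal, 0.78 to 0.87 for those of Avp and 0.69 to 0.78 for those of Hcrt. Trh was followed by AI606473 (0.85), Prr32 (0.85) and the imprinting factor Zfp57 (0.82), which fell to 0.63, 0.71 and 0.45 without knock-out 4.

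Receptors of these peptides did not pass the test in either direction. Of 16 listed, 14 had a named probe set and 7 lay above the filter, where the mean log2 value was higher in knock-out brains for 5 and lower for 2, 0 passed, and the median log2 difference was 0.10 beside 0.04 over all genes. Those above the filter were Hcrtr1 and Hcrtr2 for orexin, Mchr1, Oxtr, Avpr1a, Trhr and the melanocortin receptor Mc3r. The smallest p was that of Oxtr, the oxytocin receptor, with 123 ± 14.8 (SD, n = 6) in wild-type and 145 ± 32.3 (SD, n = 7) in knock-out brains. Its log2 difference was 0.20 (95% interval -0.08 to 0.49, limma adjusted p = 1.00), its other probe set gave 0.55, and within litters 219, 238, 250 and 262 it was 0.01, 0.50, 0.37 and -0.24. Hcrtr1 had 91.5 ± 26.2 (SD, n = 6) and 125 ± 47.4 (SD, n = 7), a log2 difference of 0.35 (95% interval -0.16 to 0.86, limma adjusted p = 1.00).

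Other peptides of the hypothalamus gave no call. Of 24 listed, 19 had a named probe set and 15 lay above the filter, with 4 higher and 11 lower means, 0 past the threshold and a median log2 difference of -0.07. Tac2, the neurokinin B precursor, had the smallest p, with 123 ± 38.3 (SD, n = 6) in wild-type and 82.0 ± 20.7 (SD, n = 7) in knock-out brains. Its log2 difference was -0.50 ± 0.19 SE (limma adjusted p = 1.00, unadjusted p = 0.0183, exact permutation p = 0.0186), lower in 4 of 4 litters. The share of all genes lower in each of these litters is not given here. The knock-out mean of Tac2 lay below the highest mean of the other-organ probe sets, 82.7. Adcyap1, the precursor of the peptide PACAP, had 271 ± 26.3 (SD, n = 6) and 342 ± 63.9 (SD, n = 7), a log2 difference of 0.30 ± 0.13 SE (limma adjusted p = 1.00), and its other probe set gave 0.25.

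Transcription factors that pattern the hypothalamus also had 0 calls among 17 tested of 25 with a probe set, with 6 higher and 11 lower means and a median of -0.05. Whole-brain RNA does not show whether the signals of these factors, or of the other peptides above, came from the hypothalamus. Gsx1, a homeobox factor that Ghrh neurons need, had the smallest p, with 115 ± 32.2 (SD, n = 6) in wild-type and 74.7 ± 20.2 (SD, n = 7) in knock-out brains. Its log2 difference was -0.52 ± 0.18 SE (95% interval -0.91 to -0.13, limma adjusted p = 1.00), lower in 4 of 4 litters. Here too the share of all genes lower in each litter is not given. The knock-out mean of Gsx1 also lay below the highest mean of the other-organ probe sets, 82.7. Lhx8 followed with -0.59 (95% interval -1.40 to 0.22, limma adjusted p = 1.00). Otp and Sim1, which oxytocin and vasopressin neurons need, stood at -0.24 ± 0.21 SE and 0.062 ± 0.13 SE, and the other probe set of Otp gave 0.15.

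Enzymes and granule proteins that process the precursors gave no call either. All 15 with a probe set lay above the filter, of which 8 had higher and 7 lower mean log2 values in knock-out brains, 0 past the threshold, at a median of 0.0026. The convertase Furin had -0.27 ± 0.18 SE and Prepl, a prolyl peptidase-like protein, 0.18 ± 0.13 SE (0.18 to 0.38 over its 4 probe sets), with limma adjusted p of 1.00 for both. Carboxypeptidase E (Cpe), which trims the cut peptides, stood at -0.0016 ± 0.10 SE, with 16363 in wild-type and 16304 in knock-out brains.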

How the data were processed

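The files deposited by the authors give 1 linear intensity per probe set for 13 Affymetrix arrays. RNA came from a kit for fatty tissue, per the labels. Which software and scaling made the intensities is not given in the sources used here. The intensities of the peptide genes carried 1 decimal in wild-type 6 and as a rule more in the other arrays. Whether wild-type 6, which had the lowest Avp signal (209), was processed otherwise is not given. The number of arrays limits the precision. Of 45037 non-control probe sets 34945 carried 1 gene symbol, per the platform annotation.

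Intensities were turned into log2(signal + 16). Probe sets with a mean above the 40th percentile were kept, with the highest one per gene, which left 12920 genes. The fit was lmFit with eBayes (limma 3.58.1, R 4.3.3) on genotype alone, its two-sided p-values were adjusted by Benjamini and Hochberg's method across the 12920 genes, and 0.05 was the threshold. Exact permutation tests ran over all 1716 splits of the arrays, ignoring litter, and correlations used 100000 resamples, two-sided. The limma fit and the correlation test were tested on simulated data. Python 3.11.15 with matplotlib 3.10.9 made the plots. The members and lists were chosen with earlier results of these data known. The genes named are all members and the 3 most alike to each. From the lists of receptors, other peptides, transcription factors and processing genes, those past the threshold or the 2 of smallest p were named. The 2 tested genes of other organs were not named. Other genes, among them Cpe, Otp and Sim1, were named after their values were seen. Groups and replicate numbers come from the sample titles, and litters from the embryo labels. Alternatives covered the pseudocount, filter, scaling, probe sets, litter, replicate number, RNA quality, sex-linked signal, weights and arrays left out.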

Additional observations from a re-analysis of the deposited data

Results flagged for a closer look

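In 2 of the 16 groups of values, 1 array lay far from the rest of its genotype on the log2 scale, where chance gives about 1 in 20 groups. Avp in knock-out 1 had a signal of 263, with a gap to the next array of 0.613 of the group's range (limit 0.568, n = 7). This array was the only one of litter 148 and had the second highest Actb ratio. Trh in knock-out 4 had a signal of 8.34, with a gap of 0.657 of the range (limit 0.568, n = 7). That signal is below the filter of 56.9.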

How the results depend on the processing

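Under the alternatives run, 0 peptide genes were called by genotype (smallest adjusted p = 0.636, Trh and Gal after median centring) or by litter (smallest adjusted p = 0.133, Oxt without wild-type 2). Oxt kept its direction in 32 of 32 alternatives, with log2 differences from 0.09 to 0.41. These alternatives refit the same arrays and are not independent, and within litter 219 alone the Oxt difference was -0.24. Leaving out knock-out 1 and leaving out litter 148 are the same fit. Ghrh could be fitted in 3, as it lay below the filter in the others, and Hcrt and Trh lay below the 60th percentile filter. The sign turned for Hcrt under quantile normalization (-0.031) and median centring (-0.063), for Cartpt under median centring (-0.018) and for Avp under median centring (-0.059), array weights (-0.10), without litter 219 (-0.082) and without litter 262 (-0.13). It turned for Gal with array weights (0.064), without litter 148 (0.0077), without litter 219 (0.033) and without both arrays of highest Actb ratio (0.049), and for Trh without litter 238 (0.27). With arrays left out in turn, the ranges were -0.12 to 0.39 for Avp, lowest without wild-type 6 and -0.060 without wild-type 1, and -0.047 to 0.62 for Pmch, lowest without wild-type 1. They were -0.11 to 0.030 for Gal, above 0 without each of wild-type 3, knock-out 1 and knock-out 2, and -0.38 to 0.062 for Trh, above 0 without knock-out 4. Alternatives of the spread between embryos were chosen after seeing the data. Quantile normalization moved the median of all genes to -0.03 and median centring to -0.15. The correlation of Oxt and Avp turned to 0.21 without the 2 arrays farthest from the median, 0.27 within wild-type arrays and 0.31 without both arrays of highest Actb ratio, and that of Hcrt and Pmch to 0.46 within knock-out arrays and 0.088 without those 2. The causes were not tested.

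The count of all genes lower in knock-out was 3, 17 with every probe set tested, and 2 at the 60th percentile filter. With arrays left out in turn, 0 to 1 genes were higher (1 without wild-type 3). The count called by litter was 5, and 3 with a pseudocount of 64, 2 at the 60th percentile filter, 52 under quantile normalization, 52 under median centring, 11 over every probe set, 37 with the Actb ratio and 2 with Eif2s3y as a covariate, 24 by ordinary least squares and 72 without both arrays of highest Actb ratio. With arrays left out it ran from 0 (without wild-type 6, or knock-out 4, or knock-out 7) to 538 (without wild-type 1), and was 101 without wild-type 2. Array weights for the litter test were not run, since they did not converge with 1 array in litter 148. The replicate numbers of the titles did not pair the arrays: deviations of same-numbered arrays correlated between -0.26 and 0.40, over 0.1 in 3 of 6 pairs. With the replicate number as a block the counts were 3 lower and 0 higher genes, with 0 peptide genes, and Oxt stood at 0.29. Signals near the filter limit what can be said of Trh and Ghrh.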
